A study of Mus musculus with 32 samples.

Results

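Transcripts of 10 genes known from the cumulus and granulosa cells of the ovarian follicle were followed through 32 libraries, each made from a single mouse oocyte. The genes were Hsd3b1, Inha, Tnfaip6, Ptx3, Ptgs2, Has2, Gja1, Fst, Cyp11a1 and Btc, which are 10 of the 13175 genes in the deposited table. They were chosen by name, with their levels in these oocytes already known, so their levels are given as a description. In the study, wild-type (WT) preantral follicles, which are small follicles without a fluid cavity, were used fresh or after vitrification, an ice-free way of freezing, and were grown enclosed in culture. Germinal vesicle (GV) oocytes, arrested before the meiotic divisions, were taken on day 8 from fresh follicles (4 oocytes) and from vitrified follicles (4 oocytes). Metaphase II (MII) oocytes, the mature eggs, were taken on day 9 after human chorionic gonadotropin (hCG), the ovulation-inducing hormone, from fresh follicles (12 oocytes) and from vitrified follicles (12 oocytes). Fresh follicles were the controls, and they too were grown in culture. Stage, day and hCG therefore change together between GV and MII oocytes and cannot be told apart. Library numbers change with them, running from 81 to 85 in GV and from 2 to 25 in MII oocytes. So does the kind of deposited value, which is whole in GV and partly fractional in MII oocytes. Each oocyte is labelled a biological replicate, but the sources used here do not give the animal or culture behind it, or how surrounding cells were taken off. The p-values below then measure the spread between these oocytes.

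In the follicle, granulosa cells line the wall and cumulus cells surround the oocyte, joined to it by thin projections that end in gap junctions. After the ovulatory hormone signal, granulosa cells release EGF-like ligands such as betacellulin (Btc), and the cumulus cells respond by making prostaglandins through Ptgs2 and a hyaluronan matrix through Has2, which the proteins of Tnfaip6 and Ptx3 cross-link. Granulosa cells also make inhibin (alpha subunit, Inha) and follistatin (Fst), which restrain activin signalling, and steroid hormones, whose synthesis starts with Cyp11a1 and passes through 3-beta-hydroxysteroid dehydrogenases such as Hsd3b1. Gja1 encodes connexin 43, the main gap junction protein between granulosa cells.

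Total counts per oocyte ran from 10357543 to 17687247 in fresh GV, from 11159677 to 16554201 in vitrified GV, from 6196976 to 10142902 in fresh MII and from 5300208 to 12206512 in vitrified MII oocytes. Levels are given in CPM, counts scaled to a library total of 1e+06 after adjustment of library sizes, and a level of 3 counts, the most that a count of 0 allows, lay between 0.121 and 0.683 CPM. Oocyte genes were high in all libraries: 17 genes of an oocyte list, among them Gdf9, Bmp15 and the zona pellucida gene Zp3, summed to between 13721 and 33942 CPM in each oocyte. Before any test 5 libraries stood apart, fresh MII oocytes 1 and 11 and vitrified MII oocytes 1, 7 and 12, and the stage results are also given without them.

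By GENCODE M21 on GRCm38 (mm10) the genes lie at chr1:75507077-75510366 (Inha), chr1:150100031-150108227 (Ptgs2), chr2:52038009-52056686 (Tnfaip6), chr3:66219910-66225805 (Ptx3), chr3:98852194-98859794 (Hsd3b1), chr5:91357261-91402994 (Btc), chr9:58006411-58027023 (Cyp11a1), chr10:56377330-56402513 (Gja1), chr13:114452290-114458951 (Fst) and chr15:56665627-56694539 (Has2). Counts are over annotated genes as the authors assigned them.

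The promoters of 4 genes are shown because of results given below. Tnfaip6 was called between stages in both treatments and Ptgs2 in vitrified oocytes alone. These calls were lost when certain single oocytes were left out. Gja1 followed the other genes from oocyte to oocyte, and Hsd3b1, also called in fresh oocytes, reached the highest level. The sequences are RefSeq's on build GRCm38.p6, end at the base before RefSeq's start of the gene, and leave out GENCODE exons of protein-coding genes. That of Tnfaip6 is cut at its own GENCODE exon, which leaves 146 bases. For Gja1 the RefSeq start lies before the GENCODE start given above. Capitals mark matches, on either strand, to the letters of 4 motifs: the CRE core TGACG, the AP-1 site TGANTCA, the C/EBP palindrome TTGCGCAA and the E-box CACGTG. None of the matches printed overlaps another.
Tnfaip6: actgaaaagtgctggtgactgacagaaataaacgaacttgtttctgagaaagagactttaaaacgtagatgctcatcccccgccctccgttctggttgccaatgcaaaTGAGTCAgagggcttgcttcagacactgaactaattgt
Ptgs2: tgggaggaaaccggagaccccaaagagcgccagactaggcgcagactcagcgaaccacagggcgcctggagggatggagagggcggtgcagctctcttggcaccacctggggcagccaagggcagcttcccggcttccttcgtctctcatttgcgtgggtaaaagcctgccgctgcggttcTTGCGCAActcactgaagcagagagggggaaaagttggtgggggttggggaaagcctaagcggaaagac
Gja1: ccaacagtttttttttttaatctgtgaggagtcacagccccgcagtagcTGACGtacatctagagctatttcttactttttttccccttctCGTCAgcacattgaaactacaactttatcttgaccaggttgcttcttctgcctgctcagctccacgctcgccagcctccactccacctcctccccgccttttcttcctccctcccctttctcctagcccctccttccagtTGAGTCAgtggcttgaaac
Hsd3b1: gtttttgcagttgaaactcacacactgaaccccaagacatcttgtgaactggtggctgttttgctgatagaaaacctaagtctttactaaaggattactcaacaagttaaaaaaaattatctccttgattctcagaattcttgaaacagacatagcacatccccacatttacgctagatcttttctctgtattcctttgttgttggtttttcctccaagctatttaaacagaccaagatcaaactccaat
These windows are chr2:52037863-52038008 on the plus strand for Tnfaip6, chr1:150099781-150100030 on the plus strand for Ptgs2, chr10:56377050-56377299 on the plus strand for Gja1 and chr3:98859795-98860044 on the minus strand for Hsd3b1. Tnfaip6 holds 1 AP-1 match, Ptgs2 1 C/EBP palindrome, Gja1 2 CRE cores and 1 AP-1 match, and Hsd3b1 no match to any of the 4. Of 32536 RefSeq promoter windows of 250 bases, 17.9% hold the CRE core, 6.73% the AP-1 site, 0.166% the C/EBP palindrome and 6.04% the E-box. These windows were not cut at exons, and the Tnfaip6 window is shorter, at 146 bases. A match describes the letters and is no evidence of binding. The Ptgs2 window also lies within an exon of Ptgs2os, a non-coding gene of the other strand. Entries were found for 8 of the 10 genes, and the windows of Inha, Ptx3, Cyp11a1 and Btc are not shown.

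In 5 MII oocytes most of the 10 transcripts were present together (6 to 10 of them), and in the other 19 at most 5 had a count. The summed level was 5260 CPM in fresh MII oocyte 11, 756 in vitrified MII oocyte 12, 107 in fresh MII oocyte 1, 104 in vitrified MII oocyte 7 and 76.7 in vitrified MII oocyte 1. The next oocyte, vitrified MII oocyte 9, had 5.15 CPM, and vitrified MII oocyte 2 had no count of any of the 10 genes, where 3 counts would be 0.562 CPM. In fresh MII oocyte 11 the 10 genes took 34436 counts, 0.556% of its total (95% Wilson interval 0.550 to 0.562, counting error only), and in vitrified MII oocyte 12 they took 5919 counts, 0.0773% (0.0754 to 0.0793). Both treatments are represented among the 5, with 2 fresh and 3 vitrified oocytes.

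Of the 8 GV oocytes, 6 lay between these sets of MII oocytes and 2 within the range of the lower 19. Their summed level was 49.9, 9.43, 2.39 and 10.6 CPM in the 4 fresh and 0.894, 20.2, 48.8 and 12.3 CPM in the 4 vitrified oocytes, so the groups of the 2 treatments overlap. By group the median was 10.0 CPM in fresh GV, 16.2 in vitrified GV, 1.03 in fresh MII and 2.79 in vitrified MII oocytes, while the mean was highest in fresh MII oocytes, at 448 ± 1516 CPM (SD, n = 12), where oocyte 11 had 5260.

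**Figure D1:**
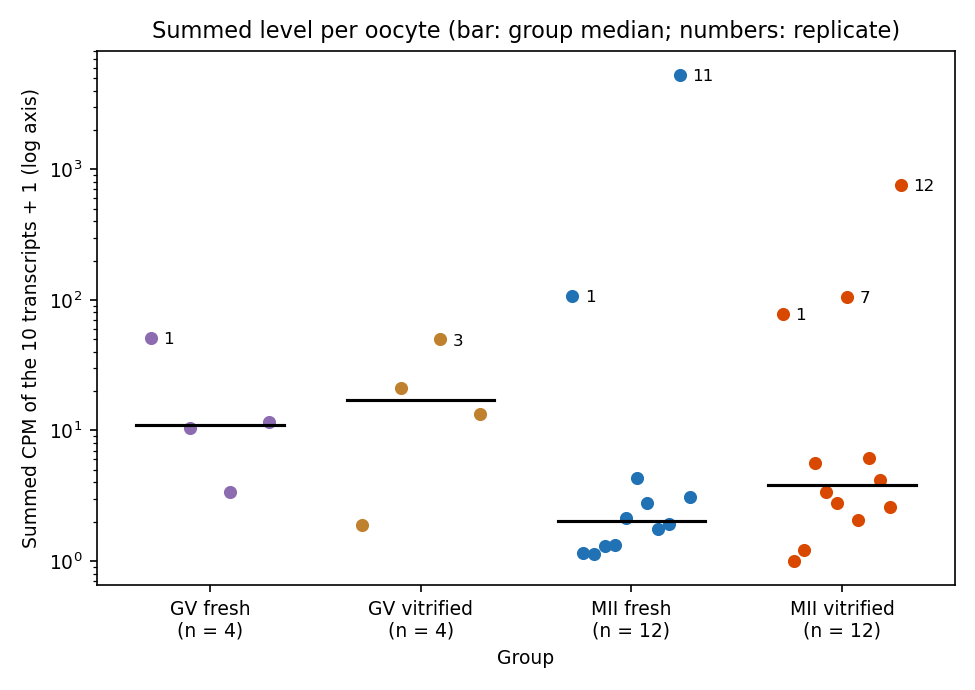
Summed CPM of the 10 transcripts plus 1 (vertical log axis) in each oocyte of the 4 groups; each point is an oocyte, the bar is the group median, and oocytes above 40 CPM carry their replicate number. The 5 highest MII oocytes lie at 76.7 CPM or more, and the other 19 at 5.15 or less.

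Has2 encodes the hyaluronan synthase of the cumulus matrix. It had 174 counts (26.6 CPM) in fresh MII oocyte 11 and at most 7 counts in any vitrified MII oocyte. In the 12 fresh MII oocytes it ran from 0 to 26.6 CPM with a median of 0.188, in the 12 vitrified from 0 to 0.938 with a median of 0, and GV oocytes had 0, 0.0813, 0.276 and 0 CPM (fresh) and 0, 0.0993, 0 and 1.34 CPM (vitrified). Has2 was thus the member least tied to the 5 oocytes: fresh MII oocytes 8 and 12 had 1.33 and 1.42 CPM with almost none of the others. Its exons overlap those of the antisense gene Has2os, and where counting ignored strand the 2 cannot be told apart.

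Tnfaip6 encodes a hyaluronan-binding protein that helps to transfer heavy chains to the matrix. It had 2869 counts (438 CPM) in fresh MII oocyte 11, 819 (105 CPM) in vitrified oocyte 12, 45 (10.2 CPM) in vitrified oocyte 7, 42 (3.73 CPM) in vitrified oocyte 1 and 34 (3.80 CPM) in fresh oocyte 1. No other MII oocyte passed 0.531 CPM, the median was 0 in both MII groups, and of the 8 GV oocytes 7 had no count and fresh GV oocyte 1 had 1. Tnfaip6 was present in each of the 5 oocytes and almost nowhere else.

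Ptx3, which encodes the pentraxin that bridges hyaluronan chains, was far more uneven. It had 1629 counts (249 CPM) in fresh MII oocyte 11 but 23 (2.94 CPM) in vitrified oocyte 12, 3 in vitrified oocyte 7 and 0 in fresh oocyte 1 and vitrified oocyte 1. All 8 GV oocytes had 0. Set per kilobase of exon, Tnfaip6 stood at 256 and Ptx3 at 92.8 CPM per kb in fresh oocyte 11, against 61.2 and 1.10 in vitrified oocyte 12.

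Ptgs2, the inducible cyclooxygenase, had 443 counts (67.7 CPM) in fresh MII oocyte 11, 203 (25.9 CPM) in vitrified oocyte 12, 53 (5.92 CPM) in fresh oocyte 1, 8 in vitrified oocyte 7 and 6 in vitrified oocyte 1. Fresh MII oocyte 7, outside the 5, had 1.72 CPM. GV oocytes had 3 counts at most, in fresh GV oocyte 3, and the 4 vitrified GV oocytes had 0.

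Btc, the EGF-like ligand, had 215 counts (32.8 CPM) in fresh MII oocyte 11, 19 in vitrified oocyte 12, 15 in vitrified oocyte 1, 11 in fresh oocyte 1 and 0 in vitrified oocyte 7. All 8 GV oocytes had 0, and the median was 0 in both MII groups. For the matrix, prostaglandin and ligand genes, fresh MII oocyte 11 was thus the highest of all 32 oocytes, as the heat map of all levels shows.

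**Figure D2:**
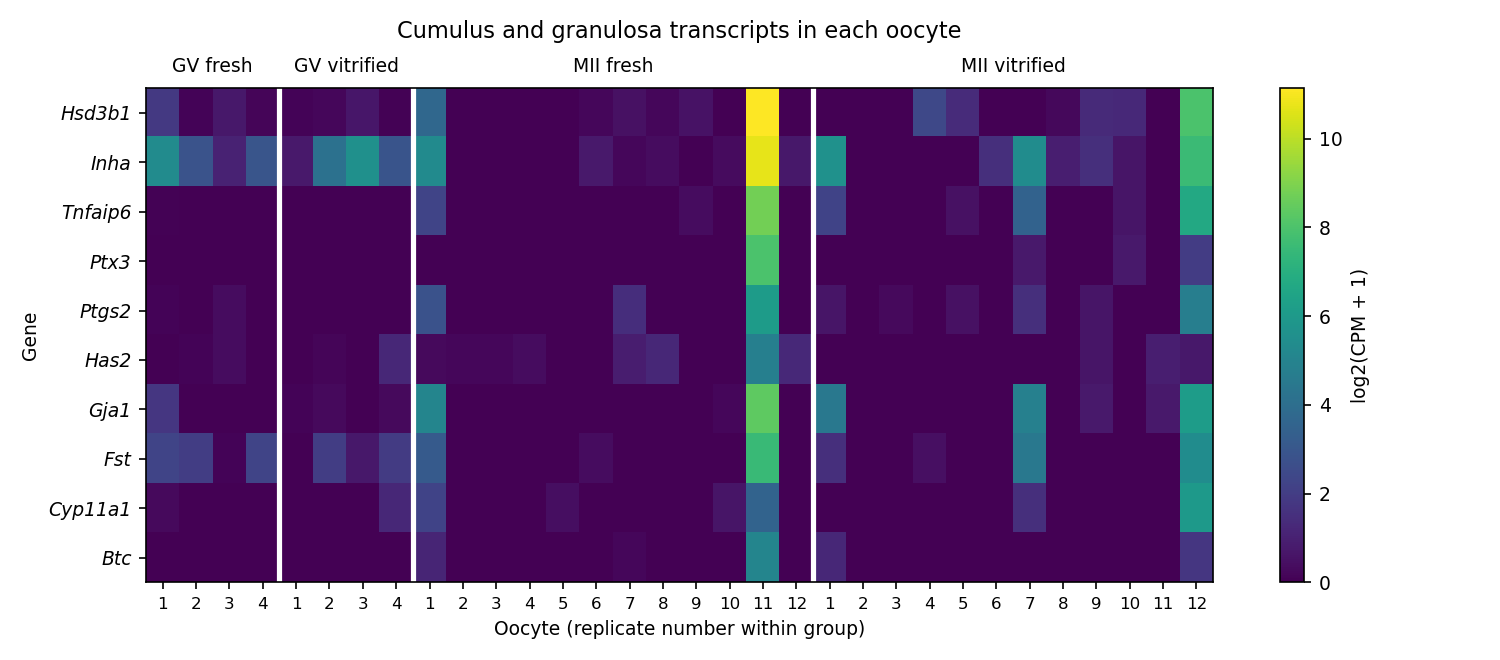
Level of each of the 10 transcripts (rows) in each of the 32 oocytes (columns, by group and replicate number) as log2(CPM + 1). Fresh MII oocytes 1 and 11 and vitrified MII oocytes 1, 7 and 12 stand out across most rows, while in GV oocytes mainly Inha and Fst are seen.

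Gja1, the connexin, was the most evenly shared among the 5 oocytes. It had 2172 counts (332 CPM) in fresh MII oocyte 11, 549 (70.2 CPM) in vitrified oocyte 12, 290 (32.4 CPM) in fresh oocyte 1, 122 (27.8 CPM) in vitrified oocyte 7 and 235 (20.9 CPM) in vitrified oocyte 1. The other 19 MII oocytes had 0.696 CPM or less and the median was 0 in both groups. GV oocytes had 2.34, 0, 0 and 0 CPM (fresh) and 0.0894, 0.199, 0 and 0.199 CPM (vitrified), so that fresh GV oocyte 1, with 58 counts, stood alone.

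Inha was the member with counts in the most oocytes. It had 10913 counts (1667 CPM) in fresh MII oocyte 11, 1510 (193 CPM) in vitrified oocyte 12, 353 (39.5 CPM) in fresh oocyte 1, 181 (41.2 CPM) in vitrified oocyte 7 and 543 (48.3 CPM) in vitrified oocyte 1, against 1.81 CPM or less in the other 19. In GV oocytes it had 1011, 154, 12 and 126 counts in the fresh (40.8, 6.26, 1.10 and 6.66 CPM) and 8, 337, 1089 and 130 in the vitrified oocytes (0.715, 16.7, 47.6 and 6.47 CPM). All 8 GV oocytes had Inha counts, and fresh GV oocyte 1 and vitrified GV oocyte 3 reached the level of the lower 3 of the 5 MII oocytes.

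Fst, which encodes the activin-binding follistatin, had 1224 counts (187 CPM) in fresh MII oocyte 11, 331 (42.3 CPM) in vitrified oocyte 12, 91 (20.7 CPM) in vitrified oocyte 7, 71 (7.94 CPM) in fresh oocyte 1 and 21 (1.87 CPM) in vitrified oocyte 1. In GV oocytes it had 3.83, 3.01, 0.0920 and 3.86 CPM (fresh) and 0, 3.03, 0.655 and 2.84 CPM (vitrified). Of the 8 GV oocytes 7 thus had Fst counts, while 17 of the 24 MII oocytes had none. Its exons overlap those of an antisense gene, Gm47040.

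Hsd3b1 gave the largest value of the 10. It had 14726 counts (2249 CPM) in fresh MII oocyte 11, 1975 (252 CPM) in vitrified oocyte 12 and 109 (12.2 CPM) in fresh oocyte 1, but 0 in vitrified oocytes 1 and 7, whose Inha and Gja1 were high. Outside the 5, vitrified MII oocyte 4 had 4.28 CPM, where of the other genes only Fst had counts (2). Vitrified MII oocytes 5, 9 and 10 had 1.60, 1.53 and 1.42 CPM of Hsd3b1. GV oocytes had 2.62, 0.0813, 0.644 and 0.106 CPM (fresh) and 0.0894, 0.149, 0.612 and 0.0498 CPM (vitrified). Hsd3b1 shares 4.86% of its 50-base exon words with near copies such as Hsd3b2, Hsd3b3 and Hsd3b6, so its counts are uncertain to that extent.

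Cyp11a1, the side-chain cleavage enzyme, was the exception in its order: it had 485 counts (62.0 CPM) in vitrified MII oocyte 12 and 71 (10.8 CPM) in fresh oocyte 11. Fresh oocyte 1 had 33 counts (3.69 CPM), vitrified oocyte 7 had 8, vitrified oocyte 1 had 0, and no other MII oocyte passed 0.535 CPM. Of the GV oocytes 6 had 0, fresh GV oocyte 1 had 5 counts and vitrified GV oocyte 4 had 27. Its exons overlap those of a non-coding gene of the same strand, Gm17322, whose reads cannot be told apart from its own there. Of the 10 genes, Cyp11a1 alone was higher in vitrified oocyte 12 than in fresh oocyte 11.

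The make-up of the signal also differed among the 5 oocytes. Hsd3b1 gave 42.8% of the counts of the 10 genes in fresh MII oocyte 11 and 33.4% in vitrified oocyte 12, but 11.4% in fresh oocyte 1 and 0% in vitrified oocytes 1 and 7. Gja1 went the other way, with 6.31% and 9.28% in the first pair and 30.3%, 26.6% and 27.3% in fresh oocyte 1 and vitrified oocytes 7 and 1. Inha gave 31.7%, 25.5%, 36.9%, 39.5% and 63.0% in the order of the summed level. In the 2 GV oocytes with the highest sums Inha gave 97.4% (vitrified oocyte 3) and 81.7% (fresh oocyte 1), Ptx3 and Btc were at 0, and Tnfaip6 and Ptgs2 had at most 1 and 2 counts.

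**Figure D3:**
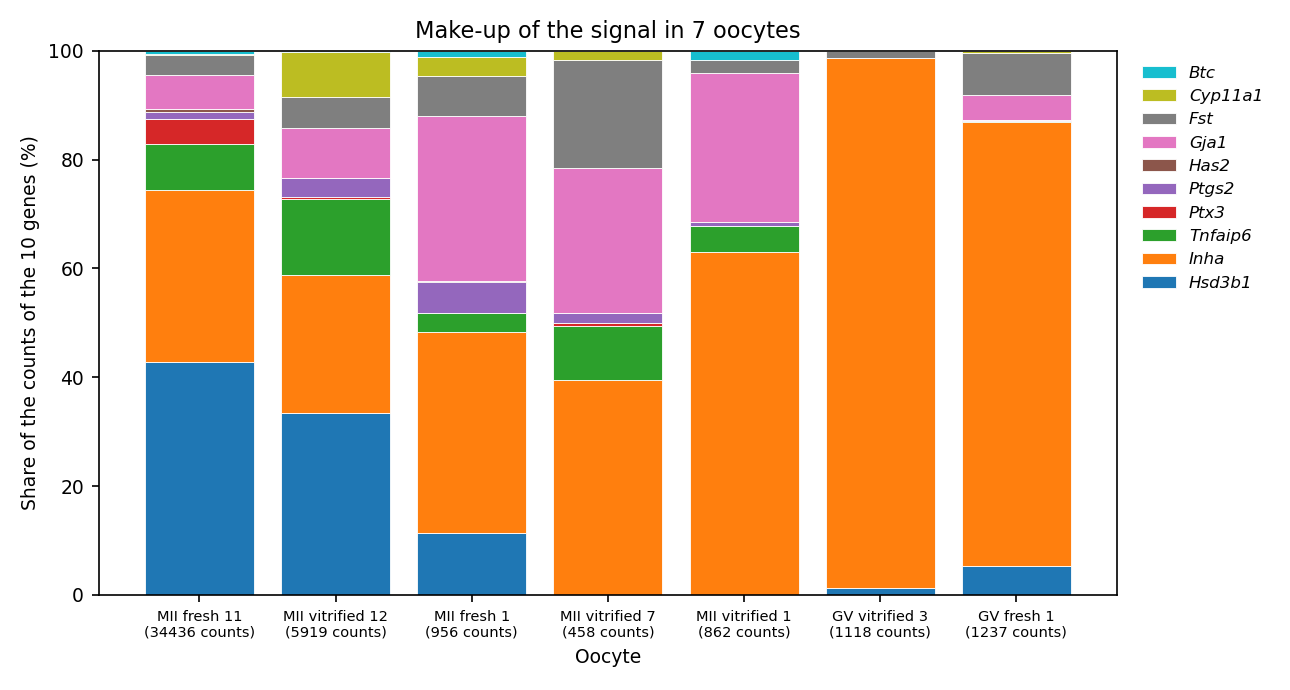
Share of each gene (stacked, vertical axis in percent) in the counts of the 10 genes in 7 oocytes, with the number of counts under each bar; shares are of counts, not per length. Hsd3b1 and Inha lead in the 2 highest MII oocytes, Inha and Gja1 in the other 3 MII oocytes, and Inha in the 2 GV oocytes.

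Per kilobase of exon, levels of different genes can be set side by side. In fresh MII oocyte 11, Hsd3b1 (1213 CPM per kb) and Inha (1130) were followed by Tnfaip6 (256), Ptx3 (92.8), Fst (40.7), Gja1 (32.3), Ptgs2 (14.8), Btc (7.27), Has2 (6.27) and Cyp11a1 (2.26). In vitrified oocyte 12 Hsd3b1 (136) and Inha (131) again led, followed by Tnfaip6 (61.2), and Cyp11a1 (12.9) came before Fst (9.22), Gja1 (6.84) and Ptgs2 (5.66). In fresh oocyte 1 Inha (26.8 CPM per kb) was well above Hsd3b1 (6.57). These lengths are unions of the exons in GENCODE M21, and these are values of single libraries with no replicate.

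The treatments were set against each other first in GV and then in MII oocytes, by edgeR's quasi-likelihood F test. In GV oocytes 2 of the 10 genes passed the filter on low counts, and 0 were called at an adjusted p below 0.05, as were 0% of all 10831 genes tested (180 had an unadjusted p below 0.05, none of them among the 10 genes; DESeq2 and limma-voom called 0). Inha differed by 0.35 ± 1.06 on the log2 scale (SE, adjusted p = 1.00, edgeR) and Fst by −0.73 ± 1.29 (adjusted p = 1.00, edgeR). The spread within groups, 0.715 to 47.6 CPM of Inha in vitrified GV oocytes, is far wider than either difference. Without vitrified GV oocyte 3 the Inha difference was −0.80, and without fresh GV oocyte 1 it was 1.94, so its direction rests on single oocytes.

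In MII oocytes none of the 10 genes passed the filter, which asks for counts in more oocytes than held them, and 0% of the 8428 genes tested were called (1053 at an unadjusted p below 0.05; limma-voom called 0 and DESeq2 52, with none of the 10 genes tested). With no filter all 10 were tested and 0 were called, while 3 had an unadjusted p below 0.05. Vitrified minus fresh, these were Ptx3 at −5.75 ± 1.66 on the log2 scale (adjusted p = 0.220, edgeR), Has2 at −3.70 ± 1.22 (adjusted p = 0.220) and Btc at −3.05 ± 1.41 (adjusted p = 0.378). All Ptx3 counts of the 12 fresh MII oocytes came from oocyte 11.

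Between stages the members were read within each treatment in a fit of all 32 oocytes, in which 8 passed the filter and Ptx3 and Btc did not. Since the genes had been picked with the high MII oocytes known, these calls describe the groups and support nothing further. In fresh oocytes 52.6% of 11470 genes were called, 22.8% as higher in MII, and 2 of the 8 rose: Tnfaip6 by 10.53 ± 3.91 on the log2 scale (adjusted p = 0.0240, edgeR) and Hsd3b1 by 7.71 ± 3.29 (adjusted p = 0.0476). Has2 came next at 4.77 ± 2.15 (adjusted p = 0.0613). In vitrified oocytes 57.0% were called, 23.3% as higher in MII, and 2 of the 8 rose: Ptgs2 by 7.63 ± 3.07 (adjusted p = 0.0343) and Tnfaip6 by 9.64 ± 4.02 (adjusted p = 0.0405), with Gja1 at 6.21 ± 2.97 (adjusted p = 0.0733). Where the GV oocytes were all or nearly all at 0, as for Tnfaip6 and Ptgs2, the size of such a difference depends on the prior count and is no bound. The median over the 8 genes was 5.18 in fresh and 5.05 in vitrified oocytes, against −0.23 and −0.34 over all genes tested.

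These calls changed when single libraries were left out. Without fresh MII oocyte 11, 0 of 7 tested genes rose in fresh oocytes (Tnfaip6 4.04, adjusted p = 0.153; Hsd3b1 0.51, adjusted p = 0.83; edgeR), and 4 rose in vitrified oocytes, namely Gja1, Hsd3b1, Ptgs2 and Tnfaip6. Without vitrified MII oocyte 12, 0 rose in vitrified oocytes and 3 in fresh oocytes. Leaving out any of fresh GV oocytes 2, 3 and 4 also left 0 in fresh oocytes, and without fresh GV oocyte 1 there was 1 in each treatment (Gja1 in fresh, Ptgs2 in vitrified). Leaving out any vitrified GV oocyte left 0 in vitrified and 1 in fresh oocytes. The Hsd3b1 call in fresh oocytes was lost in 13 of the 32 fits that left out 1 oocyte, among them those without vitrified MII oocytes 4, 5, 9 or 10, which enter that comparison only through the shared fit. With all oocytes kept, DESeq2 called 0 in each treatment, but of the 10 genes it gave a p for Tnfaip6, Ptgs2 and Fst alone. It gave none for Hsd3b1, Inha, Has2, Gja1 and Cyp11a1, so it could not call them. Within the MII libraries numbered below 20, 0 of 4 were called in each treatment, and within those numbered 20 and up, which hold both of the highest oocytes, 2 of 4 in fresh (Has2 and Hsd3b1) and 1 of 4 in vitrified oocytes (Hsd3b1). The sources used here do not say what the library numbers stand for.

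The stage comparison was also read without the 5 MII oocytes, an alternative added once the data had been looked at. These oocytes were picked for the summed level of the same genes, and no GV oocyte was left out. That choice by itself lowers the MII values, so those that remain are given as a description with no test. Of 3 genes that passed the filter, Inha and Fst were past the call threshold as lower in MII in both treatments, as were 34.1% of 11093 genes in fresh and 36.2% in vitrified oocytes. Inha stood at −6.04 ± 1.03 on the log2 scale in fresh and −5.00 ± 1.02 in vitrified oocytes, Fst at −6.15 ± 1.19 and −5.00 ± 1.24, and Hsd3b1 at −2.84 ± 1.25 and 2.04 ± 1.44 (edgeR, ± SE). With vitrified oocyte 7 kept and the other 4 left out, Inha stood at −1.98 and Fst at 0.33 in vitrified oocytes, neither of them called. With all oocytes kept, limma-voom, which works on log values, called Inha (−3.94, adjusted p = 0.0187) and Fst (−3.21, adjusted p = 0.0390) lower in fresh MII oocytes. In vitrified oocytes it called neither Inha (−3.03, adjusted p = 0.0556) nor Fst (−1.20, adjusted p = 0.511). With all oocytes kept, the median of Inha was 0.205 CPM in fresh and 0.714 in vitrified MII oocytes. In GV oocytes it was 6.46 CPM in fresh and 11.6 in vitrified. The median of Fst was 0 in both MII groups, 3.42 CPM in fresh GV and 1.75 in vitrified GV oocytes.

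**Figure D4:**
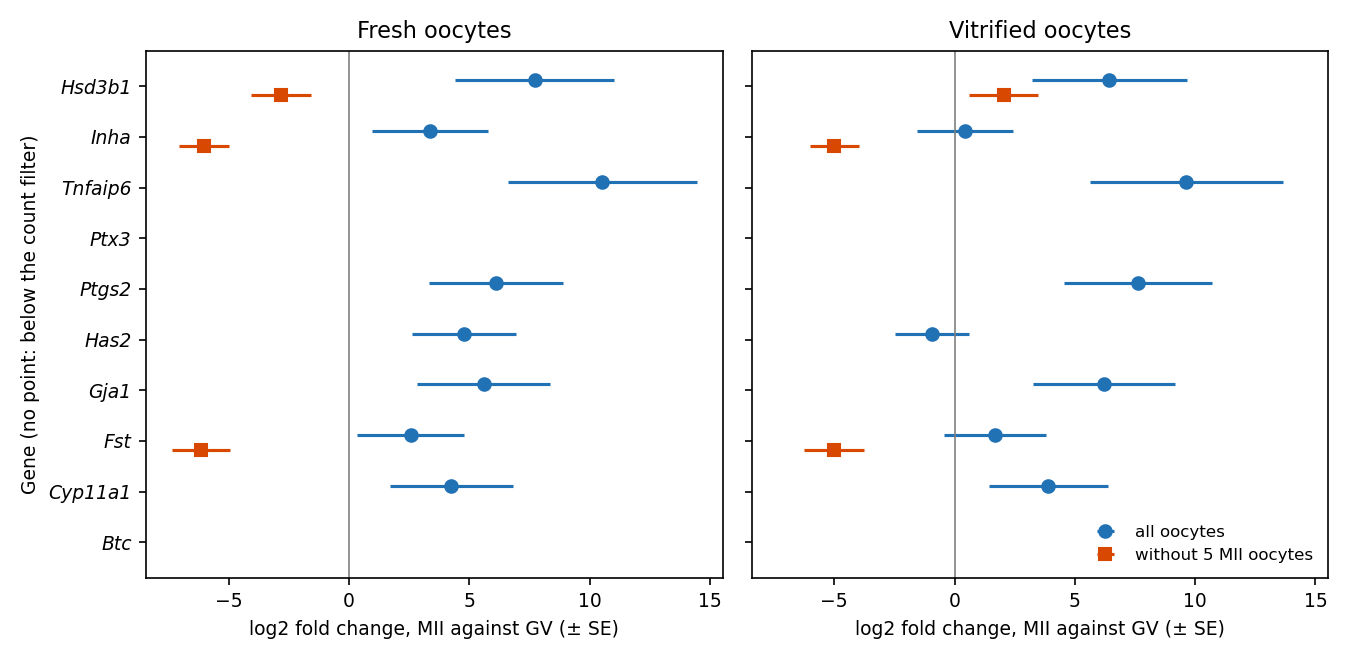
Log2 fold change of MII against GV oocytes (horizontal axis, ± SE, edgeR) for each of the 10 genes in fresh (left) and vitrified (right) oocytes, with all oocytes (circles) and without the 5 MII oocytes with the highest sums (squares); genes without a symbol were below the filter. The 5 were chosen by the level of these genes in MII oocytes alone, so the squares for Inha and Fst, between −6.15 and −5.00, lie below the circles through that choice.

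Whether the stage difference itself differed between treatments was tested as the interaction, and 0 of 8 genes and 0% of 11470 genes were called (467 unadjusted, edgeR; DESeq2 called 8 genes and limma-voom 0, none of them among the 10). Of the 10 genes, DESeq2 gave a p here for Tnfaip6, Ptgs2 and Fst alone. Has2 had the smallest p, at −5.70 ± 2.54 on the log2 scale (unadjusted p = 0.0314, adjusted p = 1.00, edgeR), followed by Inha (−2.94 ± 2.86) and Ptgs2 (1.505 ± 1.93).

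Other genes of the same pathways were read from lists of the table's genes. Of the hyaluronan matrix and cumulus expansion list, Vcan, which encodes the matrix proteoglycan versican, had 17.9, 9.97, 3.35, 0 and 0.534 CPM in the 5 oocytes in order of their summed level (fresh 11, vitrified 12, fresh 1, vitrified 7, vitrified 1), and 0.179 or less in the 19 others. Vitrified oocyte 7 thus had no Vcan count. Ptges, a prostaglandin E synthase, had 39.3, 7.16, 6.93, 2.51 and 0.622 CPM in the same order, and 2.09 at most in the 19 others. Tnc (38.3 CPM in fresh oocyte 11) and Hmmr (18.3 CPM), a hyaluronan receptor, were within the range of the 19 others, whose highest values were 61.9 and 18.4 CPM. In the stage test 1 of 9 genes of this list rose and 2 fell in fresh oocytes, and 1 rose and 3 fell in vitrified oocytes. Over all 11470 genes tested, 22.8% rose and 3413 genes fell in fresh oocytes, and 23.3% rose and 3861 genes fell in vitrified oocytes. No list was tested as a set against these shares.

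Of the list of EGF-like ligands and the luteinizing hormone response, 16 genes were in the table. Of these 16, 12 had their highest MII value in 1 of the 5 oocytes, as did 32.7% of all genes. Cebpb, a transcription factor of the ovulatory response, had 153, 48.3, 45.1, 20.5 and 74.0 CPM in the 5 oocytes in order of their summed level, and 41.5 at most in the 19 others. Rgs2 and Egfr, present in all 32 oocytes, were at 3351 and 29.0 CPM in fresh oocyte 11, each within the range of the 19 others. Adam17, a protease that sheds such ligands, was at 45.5 CPM there, the lowest of the 24 MII oocytes. In fresh oocytes 4 of 10 tested rose and 2 fell between stages, and in vitrified oocytes 2 rose and 2 fell (22.8% and 23.3% of all genes tested rose).

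Of the inhibin, activin and follistatin list, Inhba, the inhibin and activin beta-A subunit, had 36.2, 12.5, 11.3, 7.74 and 0.178 CPM in the 5 oocytes in order, and 0.573 at most in the 19 others. Fstl1 had 49.8, 13.7, 2.35, 3.87 and 0.0889 CPM, and 5.26 at most in the 19 others, so only fresh oocyte 11 and vitrified oocyte 12 passed them. Smad3 (90.6 CPM) and Smad2 (33.9 CPM), which carry the activin signal, lay in fresh oocyte 11 below the medians of the 19 others, 103 and 137 CPM. In this list 4 of 12 tested rose and 0 fell in fresh oocytes, and 3 rose and 2 fell in vitrified oocytes (22.8% and 23.3% of all genes tested rose).

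Of the steroid synthesis list, Hsd17b1, which reduces estrone to estradiol, had 115 CPM in fresh MII oocyte 11 and 6.90, 1.12, 9.11 and 0.356 in the next 4, against 0.696 at most in the 19 others. Fdx1, the electron donor of Cyp11a1, had 96.2 CPM and 134 CPM in the 2 highest oocytes and 94.3 at most in the 19 others. Cyp19a1 (80.2 CPM) and Scarb1 (75.0 CPM) were within the range of the others. In fresh oocytes 5 of 10 tested rose and 1 fell, and in vitrified oocytes 5 rose and 0 fell (22.8% and 23.3% of all genes tested rose). Fdx1 rose by 1.06 ± 0.31 in fresh (adjusted p = 0.00430, edgeR) and by 1.37 ± 0.32 in vitrified oocytes (adjusted p = 3.76e-04).

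Among connexins and pannexin, Gja4, the oocyte connexin 37, changed between stages by −3.02 ± 0.29 in fresh (adjusted p = 8.88e-11, edgeR) and by −3.39 ± 0.29 in vitrified oocytes (adjusted p = 5.27e-12). In fresh MII oocyte 11 it had 48.7 CPM, rank 23 of the 24 MII oocytes, so the oocyte highest in Gja1 was among the lowest in Gja4. In that list 2 of 6 rose and 2 fell in fresh oocytes, and 3 rose and 2 fell in vitrified oocytes (22.8% and 23.3% of all genes tested rose). The median differences of these 5 lists ran from 0.24 to 0.96 in fresh and from 0.17 to 1.72 in vitrified oocytes on the log2 scale, against −0.23 and −0.34 over all genes tested. A granulosa identity list, read below, lay on the other side, at −1.04 in fresh and −0.68 in vitrified oocytes. Of its 10 genes tested, 3 rose and 2 fell in fresh oocytes, and 2 rose and 3 fell in vitrified oocytes. The remaining lists had medians from 0.42 to 2.63 in fresh and from 0.09 to 1.88 in vitrified oocytes. Of the hyaluronan list, 6 of 12 genes had their highest MII value in 1 of the 5 MII oocytes with the highest sums. So did 4 of 12 of the inhibin list, 7 of 12 of the steroid list and 1 of 6 of the connexin list (32.7% of all genes).

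Markers of somatic cells moved with the 10 transcripts. A list of 16 genes that most somatic cells express summed to 1732 CPM in fresh MII oocyte 11, 440 in vitrified oocyte 12, 378 in fresh oocyte 1, 240 in vitrified oocyte 7 and 344 in vitrified oocyte 1. The group medians were 91.3 CPM in fresh MII and 94.4 in vitrified MII oocytes, and 293 in fresh GV and 206 in vitrified GV oocytes, where Anxa2 alone gave a median of 111 CPM. Tagln2 had 239, 13.03, 14.6, 5.01 and 15.4 CPM in the 5 oocytes and 0.600 at most in the 19 others, Cd63 had 233 CPM and Id3 396 CPM in fresh oocyte 11. Of the 16 genes, 15 had their highest MII value in fresh oocyte 11, and all 16 in 1 of the 5 oocytes, while of all 13175 genes 18.8% and 32.7% did. The part of such cells in the result was not tested. More attached cells, more RNA per attached cell and transcripts made by the oocyte itself cannot be told apart in these libraries.

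**Figure D5:**
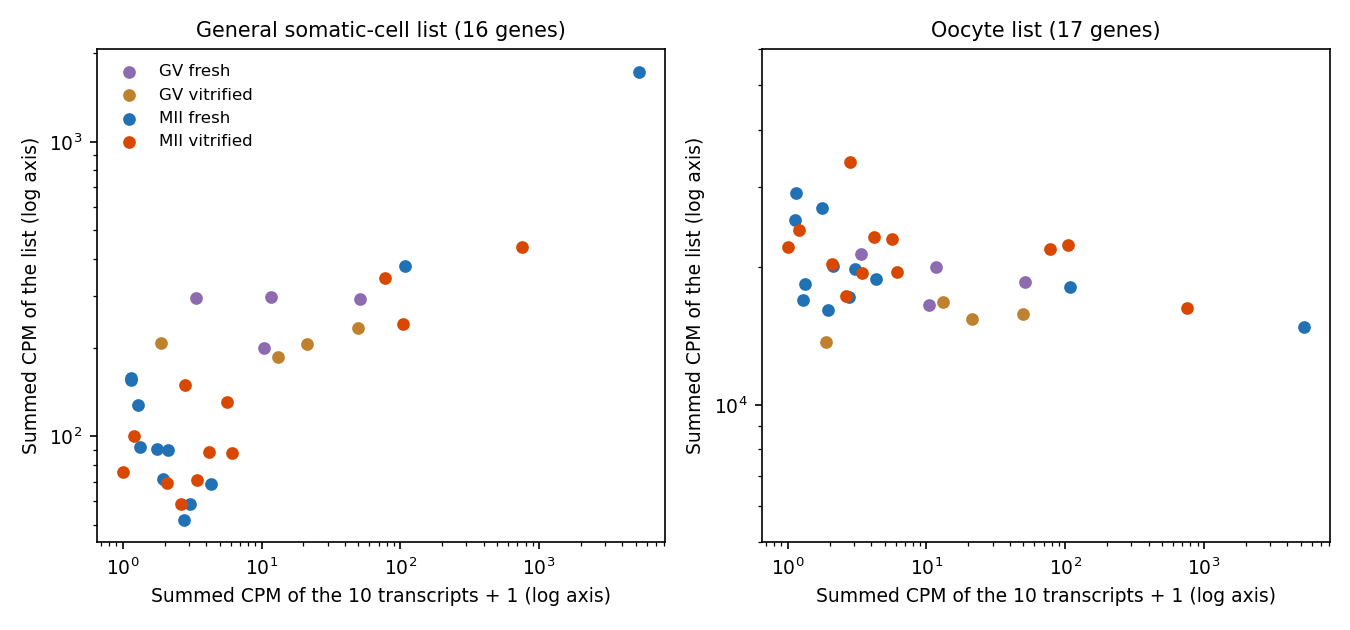
Summed CPM of the general somatic-cell list (left) and of the oocyte list (right) against the summed CPM of the 10 transcripts plus 1, both axes logarithmic, with each oocyte a point coloured by group. The somatic sum is highest, at 1732 CPM, in fresh MII oocyte 11, while the oocyte list there, at 14823 CPM, is the lowest of the MII oocytes.

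Lists of particular cell types gave a mixed picture. Of the granulosa identity list, 7 of 14 genes had their highest MII value in 1 of the 5 oocytes. So did 2 of 6 genes of the theca and stroma list, 0 of 3 of the blood, immune and endothelial list and 4 of 17 of the oocyte list. Among all genes 32.7% did. The granulosa identity list, with 14 genes in the table, summed to 403 CPM in fresh MII oocyte 11 and 322, 222, 268 and 272 CPM in the next 4. Fresh oocyte 1, at 222 CPM, was the lowest of the fresh MII oocytes, whose highest, outside the 5, had 413 CPM. Vitrified MII oocytes outside the 5 held both ends of their group's range, 239 and 425 CPM. Most of that sum came from Bmpr1b (218 CPM) and Esr2 (98.8 CPM), which all oocytes held, and Gata4 (16.3 CPM) was below the median of the 19 others. Grem1, a product of cumulus and granulosa cells, had 16.3, 4.98, 1.68, 2.05 and 2.58 CPM in the 5 oocytes and 0.517 at most elsewhere in MII. Foxl2, Wt1, Amh and Slc38a3, which define granulosa or cumulus cells, are on the granulosa identity list of 18 genes. They are not among the 14 found in the table, so their levels could not be read. The theca and stroma list (6 genes) summed to 27.6, 12.9, 3.91, 22.5 and 5.96 CPM. Of it, Acta2, a smooth muscle actin, had 9.32, 11.8, 0, 16.9 and 5.96 CPM against 2.45 at most in the 19 others, while Col1a1 had 0.458 CPM or less and Pdgfra 0 in each of the 5. Enpep (11.6 CPM in fresh oocyte 11) and Dcn (3.51 CPM) did not pass the 19 others, whose highest values were 16.2 and 6.21 CPM. Ptch1 had 2.75 CPM in fresh oocyte 11 against 1.23 at most in the 19 others. The list of blood, immune and endothelial cells (3 genes) summed to between 58.9 and 71.9 CPM in the 5, against an MII fresh median of 65.7, and most of it was Pecam1, which every oocyte held. The oocyte list summed to 14823, 16321, 18143, 22345 and 21907 CPM in the 5, with Gdf9 in fresh oocyte 11 at 3593 CPM, the lowest of the MII oocytes.

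Among the 12 genes whose levels ranked the 24 MII oocytes most like the summed level were, by Spearman's rho over 8428 genes, Arhgdia (0.81), Eno1 (0.74), Mrap (0.72), Pcsk5 (0.72), Mul1 (0.70), Pgam1 (0.70), Dnttip1 (0.69), Rpn2 (0.69), Xpnpep1 (0.66), Ints11 (0.65) and Flad1 (0.65). Over these 8428 genes, which passed the filter on low counts in MII oocytes, rho ran from −0.77 to 0.81 with a median of −0.05. None of the 10 genes passed that filter, so other genes held by as few oocytes were not ranked. The 24 oocytes also share the split of library numbers and the table's limit to expressed genes. Eno1 had 633, 131 and 132 CPM in the 3 highest oocytes against an MII median of 5.88, and Mrap had 113, 70.0 and 33.0 against 2.14. Without the 2 highest oocytes Arhgdia kept a rho of 0.76 and Eno1 of 0.66. Within the 14 MII oocytes of lower library number Arhgdia had 0.79 and within the 10 of higher number 0.83. Pearson's r on log2 values picked a different set, with 2 of 12 genes shared, headed by Aldoa (r = 0.94) and Tpi1 (r = 0.94). Among the 10 genes themselves, rho of each with the sum of the other 9 was highest for Fst (0.69) and Tnfaip6 (0.68) and lowest for Has2 (0.06).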

How the data were processed

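Single-oocyte RNA was prepared with a SMART-Seq v4 kit, per the labels' protocols, and the submitters' processing notes list HISAT2, featureCounts and mm10 with no version. The deposited table holds raw counts for GV oocytes, which are whole, and values resembling expected or estimated counts for MII oocytes, with 11.7% to 19.7% of an oocyte's values fractional. How the authors came to fractions is not stated in the labels or file, and stage and kind of value change together. Values were rounded to whole numbers, and 27 of 13202 rows, exact repeats, were removed, leaving 13175 genes, all with counts in MII oocytes.

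Library sizes were scaled by TMM, and genes were kept by filterByExpr (at least 10 counts, 15 in total). Tests were two-sided quasi-likelihood F tests of edgeR 4.0.16 in R 4.3.3 with Benjamini-Hochberg adjustment at 0.05, over all genes that passed. GV and MII comparisons were fitted on their own oocytes, the stage comparisons and the interaction on all 32. DESeq2 1.42.0 and limma 3.58.1 (voom) were alternatives. The scripts were tested on simulated counts.

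The 10 genes and the 10 gene lists were chosen with earlier results of these data known. All 10 genes were named. Differences were printed for called genes, or for the 3 with the smallest p. Of each list up to 4 genes highest in fresh MII oocyte 11 were named, and the 12 genes most alike by Spearman's rho, of which 1 is not reported here. Other genes (Zp3, Gdf9, Bmp15 and genes given as absent or near 0) were named after their values were seen. Promoters came from RefSeq (GRCm38.p6), and positions and exon lengths from GENCODE M21.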

Additional observations from a re-analysis of the deposited data

Results flagged for a closer look

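In the GV groups of 4 oocytes, a single oocyte lay far from the other 3 in 6 of 16 screens. These were the combinations of gene and group that varied, and the summed level in each group, which was not flagged. The usual chance rate of about 1 in 20 does not apply to 4 of the 6, where the other 3 oocytes were at 0 and any count stands apart. Fresh GV oocyte 1 stood apart for Inha (40.8 CPM, next highest 6.66), Gja1 (2.34 CPM, the others at 0), Cyp11a1 (0.202 CPM, the others at 0) and Tnfaip6 (0.0404 CPM, a single count, the others at 0). Vitrified GV oocyte 4 stood apart for Has2 (1.34 CPM, next highest 0.0993) and for Cyp11a1 (1.34 CPM, the others at 0), 27 counts each. The values below 0.276 CPM lie under or near the level of 3 counts. Groups of 12 oocytes were not screened in this way, and the cause of these values was not tested.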

How the results depend on the processing

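The count of the 10 genes called was 0 in the GV and interaction comparisons under each alternative that tested any of them. Between MII groups only the fits with no filter (10 tested) and of all 32 oocytes (8 tested) tested any, and each called 0. In the stage comparisons, where 2 were called in each treatment, 0 were called in fresh and 0 in vitrified oocytes with DESeq2, with a stricter filter of 10 CPM (2 of the genes tested) and in MII libraries numbered below 20. DESeq2 gave a p for Tnfaip6, Ptgs2 and Fst alone of the 10 genes, so it could not call Hsd3b1. In vitrified oocytes 1 was called with limma-voom (Ptgs2), 1 in libraries numbered 20 and up (Hsd3b1) and 0 without fresh MII oocytes 1 and 11 and vitrified MII oocytes 1 and 12. Leaving out 1 oocyte at a time gave 0 to 3 called in fresh and 0 to 4 in vitrified oocytes. A count of 2 under an alternative can hold other genes: limma-voom and the fits without 4 or 5 MII oocytes called Inha and Fst, as lower, in fresh oocytes. Hsd3b1 in fresh oocytes turned to −0.011 with limma-voom, −2.84 without the 4 and −2.84 without the 5 oocytes. The interaction of Inha turned from −2.94 to 0.91 with limma-voom, 0.80 below library number 20, 4.06 without the 4 and 1.04 without the 5 oocytes, and it ran from −4.46 to 2.26 over oocytes left out. That of Ptgs2 ran from −1.39 to 4.69, and Inha between GV groups from −0.80 to 1.94. The cause was not tested. Ranking by Pearson's r shared 2 of the 12 genes named as alike.

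With a replicate block the stage comparisons called 0 of the 10 genes in each treatment (Tnfaip6 4.36 in fresh and 6.01 in vitrified oocytes). The numbers share only a label: same-numbered oocytes deviated together with r over 0.1 in 2 of 4 GV pairs (−0.52 to 0.33) and 6 of 12 MII pairs (−0.42 to 0.39). Over all genes, DESeq2 called 52 between MII groups and 8 in the interaction, against 0 and 0 with edgeR.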
